A study of Homo sapiens with 3 samples.

Results

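The EGF-family growth factors measured here were AREG, EREG, HBEGF, TGFA, BTC, EGF and NRG1. They were taken as every non-control probe whose RefSeq accession belongs to one of these genes, which gave 10 probes for 7 genes, of 22439 genes named on the arrays. AREG, TGFA and NRG1 had 2 probes each and the other 4 genes had 1. All values come from TK-10 cells, an established human renal carcinoma line, hybridised to 3 single-colour Agilent arrays, 1 for each condition, after 48 h of treatment. The vehicle culture received 0.1% DMSO. The cordyceps culture received 750 μg/ml of what the labels call cordyceps, the fungus from which cordycepin comes. The methods of the study name cordycepin, at a lower dose, and it was not settled which of the 2 was on this array. The sunitinib culture received 10 μM sunitinib, a small-molecule inhibitor of receptor tyrosine kinases, and the methods of the study describe no sunitinib array. All 3 cultures shared one DMEM medium with serum at 10% and antibiotics (penicillin-streptomycin) at 1%. To it were added zinc sulfate at 16.7 μM, troglitazone, an agonist of PPAR-gamma, at 10 μM and nicotinamide at 10 mM. Whether the treated cultures also held DMSO is not given in the sources used here. With 1 array a condition there was no replicate, so no p-value or replicate SD is given. The error beside each value is the estimate that Agilent's Feature Extraction software makes for the spot, which is technical only. Serum, 1 cell line and 1 time point limit what the conditions stand for.

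EGF-family growth factors are made as precursors that sit in the cell membrane. Proteases of the ADAM group cut the precursor, and the released ligand binds a receptor of the ErbB group on the same cell or a neighbour. AREG (amphiregulin), TGFA (transforming growth factor alpha) and EGF bind EGFR, while EREG (epiregulin), HBEGF (heparin-binding EGF-like growth factor) and BTC (betacellulin) bind EGFR and ERBB4. NRG1 (neuregulin 1) binds ERBB3 and ERBB4. Bound receptors drive the RAS-ERK chain, and several of the ligand genes are themselves transcribed more when ERK is active, which closes an autocrine loop known from many carcinomas.

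In the sunitinib-treated cells, EREG was 6.92-fold lower than on the vehicle array, AREG 5.85-fold lower, NRG1 2.54-fold lower and BTC 2.24-fold lower. HBEGF was 3.34-fold lower by a sunitinib signal too dim to count as detected. TGFA was 1.80-fold higher there by its brighter probe. With cordyceps no ligand gene passed 2-fold in either direction, and AREG, at 1.63-fold higher, was the farthest from the vehicle level. With no scaling between arrays, another background correction or the mean of probes, BTC was farthest, on the lower side. EGF stayed undetected on all 3 arrays. In bulk RNA, fewer cells that express a gene and less RNA per cell cannot be told apart.

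A signal counts here as detected where the software marked it well above background. Such probes made up 37.8% to 45.5% of all probes, and saturation affected 0 probes. By the file headers, all 3 arrays shared a slide and a scan. The 75th percentile of the processed signal was 164.6 for vehicle, 137.9 for cordyceps and 78.2 for sunitinib, and each signal was divided by that of its own array before comparison. Of 10 markers of kidney epithelium and renal carcinoma, 8 were detected on every array, among them PAX8, PAX2, KRT8 and KRT18. Of the markers of other cell types, 1 or 2 of 5 for blood, 2 of 3 for endothelium and 0 of 3 for hepatocytes were detected. A bright area of 581 spots lay on the cordyceps array alone, and no probe of the 7 ligand genes fell in it. The spots around the BTC probe were brighter there by a median of 0.62 on the log2 scale. That was the largest excess of any ligand probe, short of the limit of 1 that defined the area.

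EREG, AREG and BTC lie in one row on chromosome 4. The promoters of the 4 lower genes that the RefSeq promoter table of GRCh38.p14 gave are shown because these are the genes that were past 2-fold. Each runs 5′ to 3′ on the strand of its gene over the 250 bases before the transcription start. Capitals mark a cyclic AMP response element (CRE, TGACGTCA) or its core, TGACG. They also mark the TATA box, searched as TATAAA, and an NF-kB motif. GC boxes (GGGCGG), the most frequent motif searched, are left in lower case.
AREG: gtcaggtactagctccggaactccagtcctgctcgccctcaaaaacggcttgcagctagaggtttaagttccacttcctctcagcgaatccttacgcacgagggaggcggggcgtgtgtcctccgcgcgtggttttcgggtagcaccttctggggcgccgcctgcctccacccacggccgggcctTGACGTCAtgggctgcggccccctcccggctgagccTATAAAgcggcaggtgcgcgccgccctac
EREG: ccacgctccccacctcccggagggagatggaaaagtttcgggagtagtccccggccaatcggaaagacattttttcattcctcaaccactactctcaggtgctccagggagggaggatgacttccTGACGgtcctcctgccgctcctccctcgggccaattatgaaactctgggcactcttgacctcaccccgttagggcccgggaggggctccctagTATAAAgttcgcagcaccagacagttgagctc
HBEGF: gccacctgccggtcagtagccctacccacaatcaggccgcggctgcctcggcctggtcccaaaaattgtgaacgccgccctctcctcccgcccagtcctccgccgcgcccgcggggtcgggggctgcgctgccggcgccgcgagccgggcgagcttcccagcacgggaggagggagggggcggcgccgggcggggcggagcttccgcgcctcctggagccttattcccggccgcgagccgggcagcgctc
BTC: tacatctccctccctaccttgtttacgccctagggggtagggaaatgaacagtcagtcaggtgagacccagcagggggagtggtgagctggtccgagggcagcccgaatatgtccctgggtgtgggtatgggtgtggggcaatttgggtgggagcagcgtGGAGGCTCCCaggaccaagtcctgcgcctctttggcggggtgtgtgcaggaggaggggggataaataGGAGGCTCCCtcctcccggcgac
The AREG stretch lies at chr4:74444886-74445135 on the plus strand and EREG at chr4:74364895-74365144 on the plus strand. HBEGF lies at chr5:140346604-140346853 on the minus strand and BTC at chr4:74794524-74794773 on the minus strand.

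The letters of these promoters differed. A full CRE began 65 bases before the AREG start, a match found in 1.65% of 35116 RefSeq promoters of the same length, with both strands searched. The TGACG cores in it overlap the full motif. EREG held a TGACG core alone, 125 bases before its start. A TGACG core, within a full CRE or not, was in 21.2% of promoters. A TATAAA began 29 bases before the start of AREG and 32 before that of EREG, against 10.7% of promoters holding one. BTC held 2 NF-kB motifs, 90 and 23 bases before its start, where 9.96% of promoters held any. HBEGF held 5 GC boxes and none of the other motifs, AREG held 1 GC box, and 42.6% of promoters held at least 1. An AP-1 motif (TGANTCA), found in 6.57% of promoters, was in none of the 4. The GC content was 76.4% for HBEGF, 65.2% for AREG, 62% for BTC and 58% for EREG, and the median of all promoters was 58%. These matches describe the letters of the windows only.

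**Figure D1:**
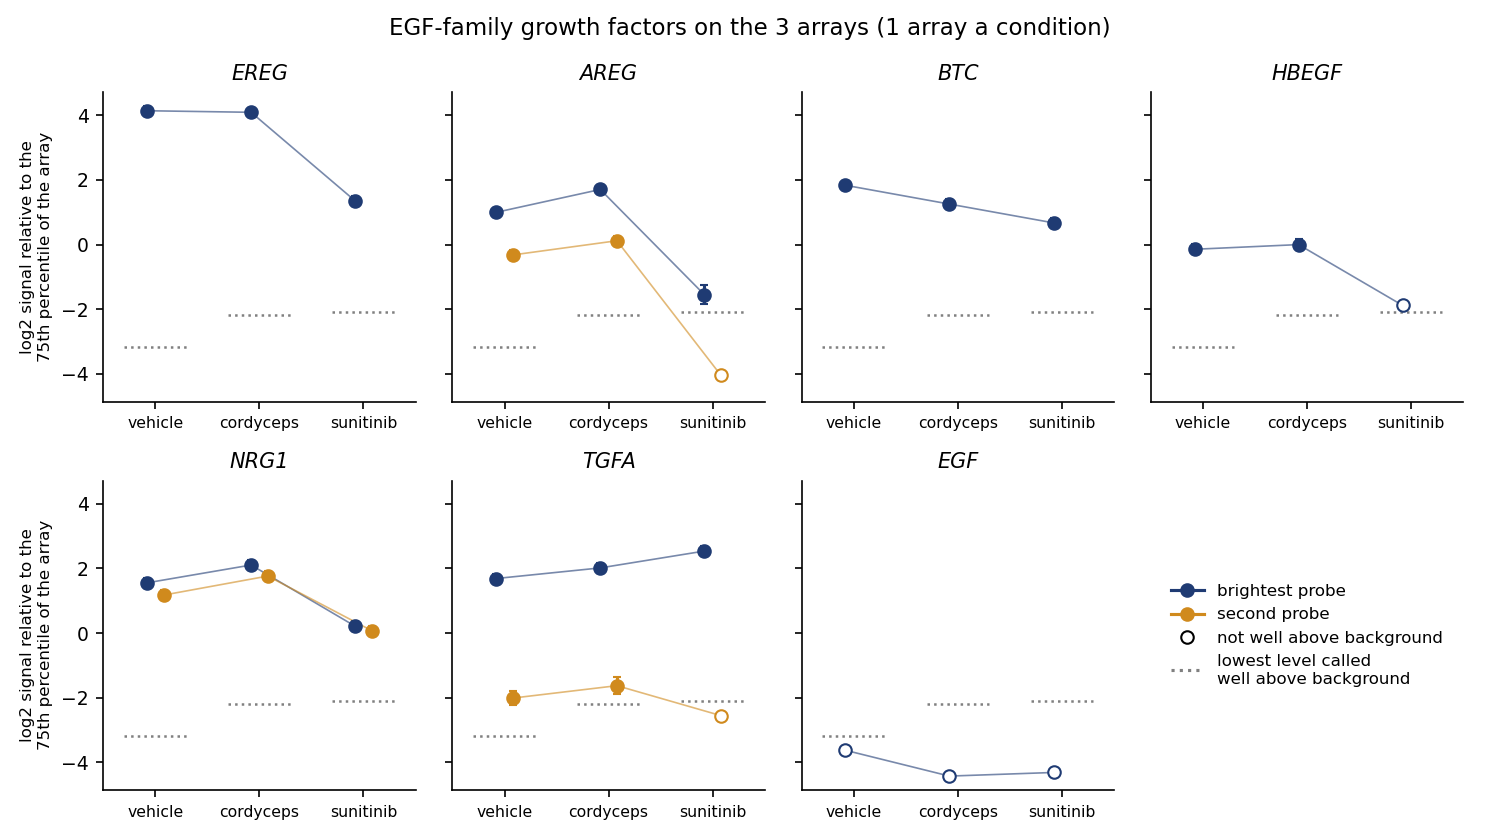
Level of each EGF-family gene on the vehicle, cordyceps and sunitinib arrays, as log2 of the processed signal relative to the 75th percentile of the array. Filled points are well above background, open points are not, bars are the software's error of the spot, and dotted lines mark the lowest level called well above background on that array. EREG is near 4 on the vehicle and cordyceps arrays and at 1.35 on the sunitinib array, and EGF is open on all 3.

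EREG was the ligand with the largest measured difference on the sunitinib array. Its processed signal, in arbitrary units, was 2904 ± 290 on the vehicle array, 2353 ± 235 on the cordyceps array and 199 ± 20.3 on the sunitinib array. Relative to the 75th percentile of each array, these are log2 levels of 4.14, 4.09 and 1.35. The vehicle and cordyceps levels lay within the technical error of each other, with a log2 ratio of -0.05 and a 95% technical limit of 0.40. The sunitinib level lay below both, with a log2 ratio over vehicle of -2.79 ± 0.21. Of 14912 genes compared between the sunitinib and vehicle arrays, 82, or 0.55%, had a lower ratio.

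AREG was lower on the sunitinib array by both of its probes. The brighter AREG probe gave 329 ± 33.2 for vehicle, 449 ± 45.6 for cordyceps and 26.7 ± 5.40 for sunitinib. Its log2 ratios over vehicle were 0.71 ± 0.21 for cordyceps and -2.55 ± 0.33 for sunitinib. The order of its levels was therefore cordyceps, vehicle, sunitinib, and each step exceeded the 95% technical limit, which was 0.41 for the first ratio and 0.64 for the second. The dimmer AREG probe gave 132, 150 and 4.72, the last not well above background, which is at least 3.41-fold lower than vehicle. Its cordyceps ratio was 0.44, against a limit of 0.44 that it barely passed. With a different background correction (normexp), the sunitinib ratio of AREG was -1.33, still past 2-fold.

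HBEGF was detected on the vehicle and cordyceps arrays and not on the sunitinib array. Its signal was 149 ± 15.6 for vehicle, 138 ± 15.8 for cordyceps and 21.2 ± 5.18 for sunitinib, the last not well above background. The vehicle and cordyceps levels differed by a log2 ratio of 0.14, within the limit of 0.44. The sunitinib value, 3.34-fold lower, is the plain ratio of that dim signal, which lay above the lowest signal well above background, 18.3. This ratio is therefore no minimum, and normexp left it at -0.59 on the log2 scale, short of 2-fold.

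BTC, encoded next to AREG, was lower on both treated arrays. Its signal was 587 ± 58.9 for vehicle, 328 ± 33.6 for cordyceps and 124 ± 13.2 for sunitinib. The log2 ratios were -0.58 ± 0.21 for cordyceps and -1.16 ± 0.21 for sunitinib. Both exceeded their 95% technical limits of 0.41, though the limit around the sunitinib ratio reaches values short of 2-fold. With median scaling the cordyceps ratio was -0.36, within its limit. BTC was the lowest member on the cordyceps array, where 9.03% of all genes compared had a lower ratio.

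NRG1, the neuregulin of the group, gave like ratios by its 2 probes. Signals of the brighter probe were 483 ± 48.5, 593 ± 59.7 and 90.5 ± 9.86 for vehicle, cordyceps and sunitinib. The other NRG1 probe gave 372 ± 37.4, 468 ± 47.2 and 82.2 ± 9.09 in the same order. The ratios over vehicle were 0.55 and 0.59 on the log2 scale for cordyceps and -1.34 and -1.10 for sunitinib. Each of the 4 ratios exceeded its technical limit, of which the largest was 0.42, so by both probes the order was cordyceps, vehicle, sunitinib. With no scaling the cordyceps ratio of the brighter probe was 0.30, within its limit of 0.40. As for BTC, the limits around the sunitinib ratios reach values short of 2-fold.

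TGFA differed from the other detected ligands in its direction on the sunitinib array, and its probes disagreed there. The brighter probe gave 530 ± 53.2 for vehicle, 558 ± 56.3 for cordyceps and 454 ± 45.6 for sunitinib, which after scaling are log2 ratios of 0.33 and 0.85. The first was within its limit of 0.40 and the second was past it. The dimmer TGFA probe gave 40.8, 44.6 and 13.3, the last not well above background and a bound of at least 1.06-fold lower. Before scaling the sunitinib signal of the brighter probe was the lowest of the 3, and the unscaled log2 ratio was -0.22. The direction for TGFA on the sunitinib array therefore depended on the probe and on the scaling.

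EGF had signals of 13.3 ± 4.08 for vehicle, 6.41 ± 6.42 for cordyceps and 3.93 ± 3.94 for sunitinib. None was well above background, and no ratio was formed for it. On the vehicle array it met the looser mark of a signal positive and significant against background.

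**Figure D2:**
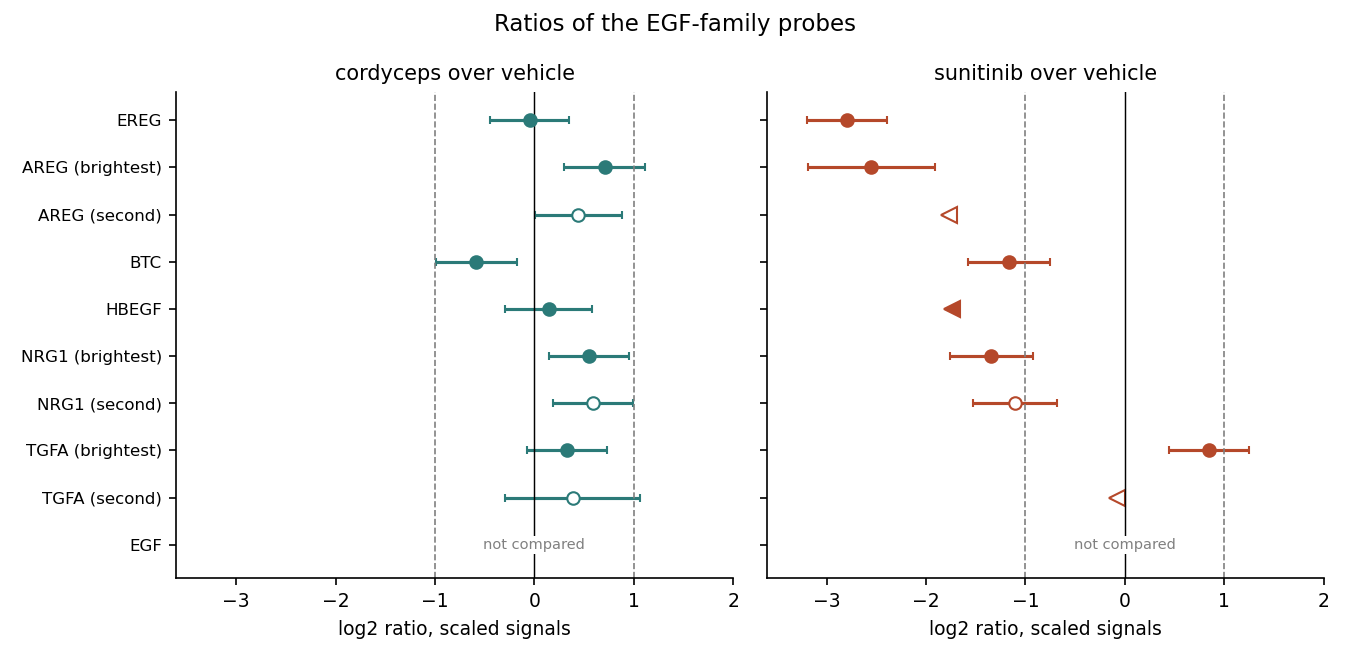
Log2 ratio of each EGF-family probe on the cordyceps array (left) and the sunitinib array (right) over the vehicle array. Bars are 95% technical limits, open points are second probes, and dashed lines mark 2-fold. Triangles are probes not well above background on the sunitinib array, drawn at a bound or, for HBEGF, at the plain ratio. The 5 lowest genes on the right lie at or left of -1.16, and the brighter TGFA probe lies at 0.85.

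Taken over the group, 6 of the 7 genes could be compared in each case, since EGF could not. For cordyceps, 0 passed 2-fold upward and 0 downward, beside 2.99% and 2.76% of 14786 genes. Their log2 ratios ran from -0.58 to 0.71 with a median of 0.24, beside a median of 0 and quartiles of -0.25 and 0.24 over all genes. For sunitinib, 0 of 6 passed 2-fold upward and 5 of 6 downward, beside 6.5% and 6.53% of 14912 genes. Of the 5, HBEGF rested on a signal not well above background. The median log2 ratio of the 6 was -1.54, with quartiles of -0.37 and 0.36 over all genes. Both comparisons share the vehicle array, so an error of that array would enter both. The members, and the gene lists below, were chosen with earlier results of these data known, so the shares over all genes test nothing.

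The place of each ligand among all genes compared differed between the arrays. For sunitinib the share of genes with a lower ratio was 0.73% for AREG, 1.86% for HBEGF (not detected there), 3.35% for NRG1 and 4.79% for BTC. For TGFA, 8.88% of genes had a higher ratio. For cordyceps the share with a higher ratio was 6.06% for AREG, 9.68% for NRG1 and 18.9% for TGFA, while EREG and HBEGF lay within the quartiles of all genes.

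**Figure D3:**
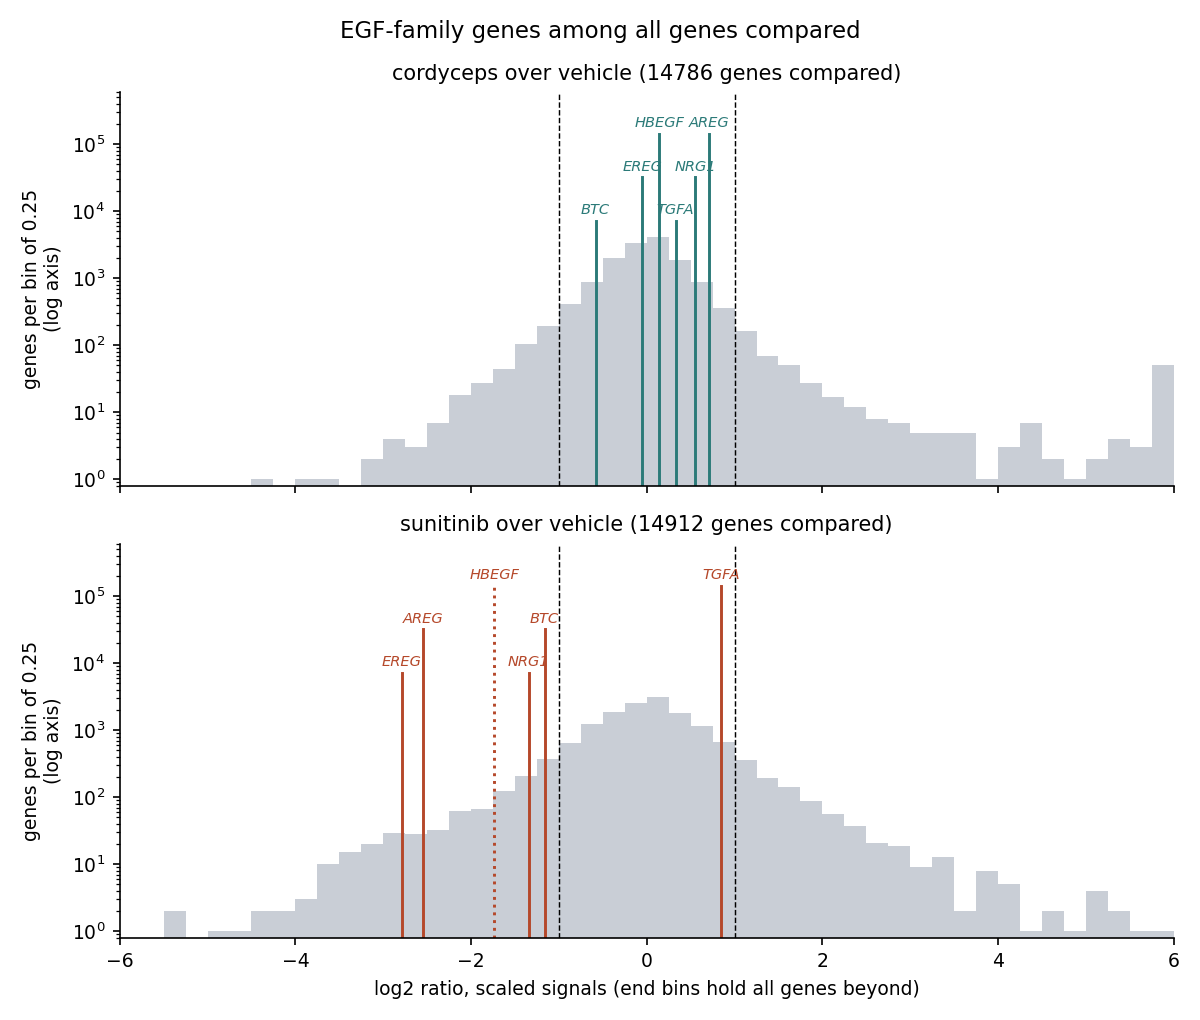
Number of genes per bin of log2 ratio for all genes compared, with the EGF-family genes as vertical lines and 2-fold as dashed lines. The dotted line is HBEGF on the sunitinib array, the plain ratio of a signal not well above background. The vertical axis is a log axis. On the cordyceps array the 6 lines lie between -0.58 and 0.71, and on the sunitinib array 5 of the 6 lie below -1.

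Scaling set part of these values. Dividing by the median of each array in place of its 75th percentile moved all log2 ratios by 0.22 for cordyceps and -0.33 for sunitinib. With the median, 13.0% of all genes passed 2-fold downward and 3.57% upward on the sunitinib array, and 1.51% and 5.05% on the cordyceps array, and the counts of ligands past 2-fold stayed at 5 and 0. With no scaling 53.7% of all genes were more than 2-fold lower on the sunitinib array and 1.09% higher. The near-zero cordyceps ratios turned sign, EREG to 0.17 with the median and HBEGF to -0.11 with no scaling.

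The neighbours of the chromosome 4 genes were read in the order of the RefSeq annotation. Going along the chromosome the protein-coding genes are CXCL3, CXCL2, MTHFD2L, EPGN, EREG, AREG, BTC, PARM1, RCHY1 and THAP6. The chemokine genes CXCL3 and CXCL2 had log2 ratios of -1.68 and -2.56 on the sunitinib array, and of 0.99 and -0.05 on the cordyceps array. The signal of CXCL2 was 5519, 4451 and 444 for vehicle, cordyceps and sunitinib. On the other side of BTC, PARM1 was at least 2.64-fold higher on the sunitinib array, and RCHY1 and THAP6 had ratios of -0.34 and -0.29. The sunitinib signals of PARM1, 22.8, and CXCL3, 25.5, were near the lowest signal well above background there, 18.3. EPGN was not detected on any array. Values more than 2-fold lower on the sunitinib array were thus not shared by the whole row.

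The genes with the most similar pair of ratios were searched among 12397 other genes detected on all 3 arrays, by the Euclidean distance in the 2 log2 ratios with the bright area left out. For EREG only 2 genes lay within 0.25, CTPS1 at 0.22 and CXCL2 at 0.23, and PKMYT1 came next at 0.30. For AREG 8 genes lay within 0.25, and the nearest were HK2 at 0.10, UBE2T at 0.14 and TROAP at 0.18. NRG1 had 59 genes within that distance, the nearest being POC1A, DKC1 and MGLL. BTC had 86, with CNTLN and PISD among the nearest, and TGFA had 400, led by RFX3, OSBPL1A and RPL30. HBEGF was left out because it was not detected on the sunitinib array. Likeness over 3 arrays is a description and carries no test.

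The other genes of the pathway were read from 6 lists of 64 genes, of which 58 could be compared in each case. For cordyceps 4 of the 58 passed 2-fold upward and 1 downward, with a median of 0.07, beside 2.99% and 2.76% of all genes. For sunitinib 4 of the 58 passed it upward, near the 6.5% of all genes, and 8 downward, beside 6.53%, with a median of -0.12. Of the remaining EGF-family ligands, NRG2 alone was detected, with signals of 147, 86.2 and 95.7 for vehicle, cordyceps and sunitinib and log2 ratios of -0.52 and 0.45. EPGN, NRG3 and NRG4 were not detected on any array.

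Of the receptors, EGFR had signals of 961, 1596 and 337 for vehicle, cordyceps and sunitinib. Its log2 ratio was 0.99 on the cordyceps array, just short of 2-fold, and it passed 2-fold with median scaling or with the bright area left out. Its other 2 probes, which match other transcripts, gave -0.26 and 0.70, so the probes disagreed. The EGFR ratio for sunitinib was -0.44, and -0.13 as the mean of its probes. ERBB2, whose product needs no ligand of its own, had ratios of 0.04 and 0.21. ERBB3 had ratios of -0.13 and -0.21, the first from a spot in the bright area. ERBB4 was not detected on the vehicle array (15.2) or the cordyceps array (9.58) and was detected on the sunitinib array (113), at least 13.0-fold higher. With normexp its log2 ratio was 1.72 in place of 3.70, so the size of that bound rests on the background correction. A second ERBB4 probe was not detected on any array.

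Of the genes that release or restrain the release of ligands, ADAM17, the main sheddase of AREG, EREG, HBEGF and TGFA, had log2 ratios of 0.02 for cordyceps and -0.42 for sunitinib. ADAM10, a sheddase of EGF and BTC, had -0.41 and -0.68. On the cordyceps array ADAM12 was more than 2-fold lower at -1.54, and TIMP3, an inhibitor of these proteases, at least 3.37-fold higher by a spot in the bright area. ADAM8 was highest among the rest at 0.92. With sunitinib ADAM12 at -1.90 and the rhomboid protease gene RHBDL2 at -1.19 were more than 2-fold lower and FURIN, a proprotein convertase gene, higher at 1.06. Other ADAM12 probes gave smaller differences, down to -0.21 for cordyceps and -0.02 for sunitinib. RHBDL2 gave -1.45 by a second probe, but was short of 2-fold with normexp at -0.67 and as the mean of its probes at -0.88. The mean of its probes also left ADAM12 short of 2-fold, at -0.75 for cordyceps and -0.94 for sunitinib, and normexp left TIMP3 at 0.53. FURIN was short of 2-fold at 0.73 with median scaling, 0.62 with normexp and -0.01 with no scaling.

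None of the 16 genes of the adaptor and RAS-ERK list that could be compared passed 2-fold on either array. Over all genes 2.99% were higher and 2.76% lower for cordyceps, and 6.5% and 6.53% for sunitinib. On the cordyceps array the 16 ran from -0.32 for SHC1, an adaptor, to 0.98 for HRAS. On the sunitinib array they ran from -0.87 for NRAS to 0.89 for MAPK3, which encodes ERK1. As the mean of its probes, SHC1 was at -0.16 for cordyceps and NRAS at -0.38 for sunitinib. GAB1 was not detected. The count past 2-fold depended on the scaling. On the sunitinib array 4 of the 16 were more than 2-fold lower with the median, beside 13.0% of all genes. With no scaling 8 were, beside 53.7%. HRAS passed 2-fold on the cordyceps array with the median. Of the 11 genes that restrain the receptors or the chain, CBLB, a ubiquitin ligase gene, read 2.36 on the cordyceps array by a spot in the bright area, while its other probe gave a bound of -0.72. LRIG3 was lowest there at -0.73. On the sunitinib array SOCS5 was 2.12-fold higher and LRIG1, a negative regulator of ErbB receptors, 2.27-fold lower. The SOCS5 ratio was short of 2-fold at 0.75 with median scaling, 0.77 with normexp and 0.01 with no scaling. With the bright area left out, 55 list genes could be compared on the cordyceps array. Of these DUSP5, EGFR, FOSL1 and HRAS were more than 2-fold higher and ADAM12 lower, beside 2.662% and 2.498% of all genes. EGFR and HRAS were just short of 2-fold with that area kept, at 0.99 and 0.98.

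Genes known to respond to ERK were read beside the ligands, and 12 of the 13 could be compared, FOS not being detected. On the cordyceps array 2 were more than 2-fold higher and 0 lower, beside 2.99% and 2.76% of all genes. The list median was 0.56. FOSL1, an AP-1 subunit gene, went from 977 to 2477, a ratio of 1.60, and DUSP5, an ERK phosphatase gene, from 164 to 321, a ratio of 1.23, which was just short of 2-fold with normexp and, at 0.97, with no scaling. The lowest was ETV4 at -0.38. On the sunitinib array 5 were lower and 1 higher, beside 6.53% and 6.5% of all genes, with a list median of -0.78. FOSL1 read 89.7 there, a ratio of -2.37. MYC had a ratio of -1.54, ETV5 of -1.47 and CCND1, the cyclin D1 gene, of -1.19. DUSP5 was 3.53-fold lower, from a sunitinib signal of 22.0 that was not well above background. EGR1, an immediate early gene, was the one higher gene, with signals of 225 for vehicle and 392 for sunitinib and a ratio of 1.87. With normexp FOSL1, MYC and CCND1 stayed past 2-fold, ETV5 at -0.57 and DUSP5 at -0.60 did not, and DUSP6 at -1.05 joined them, which made 4 of 12, where 5.65% of all genes were lower. With median scaling 7 were lower, beside 13.0% of all genes, and with no scaling 10 were lower and 0 higher, beside 53.7% of all genes lower.

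**Figure D4:**
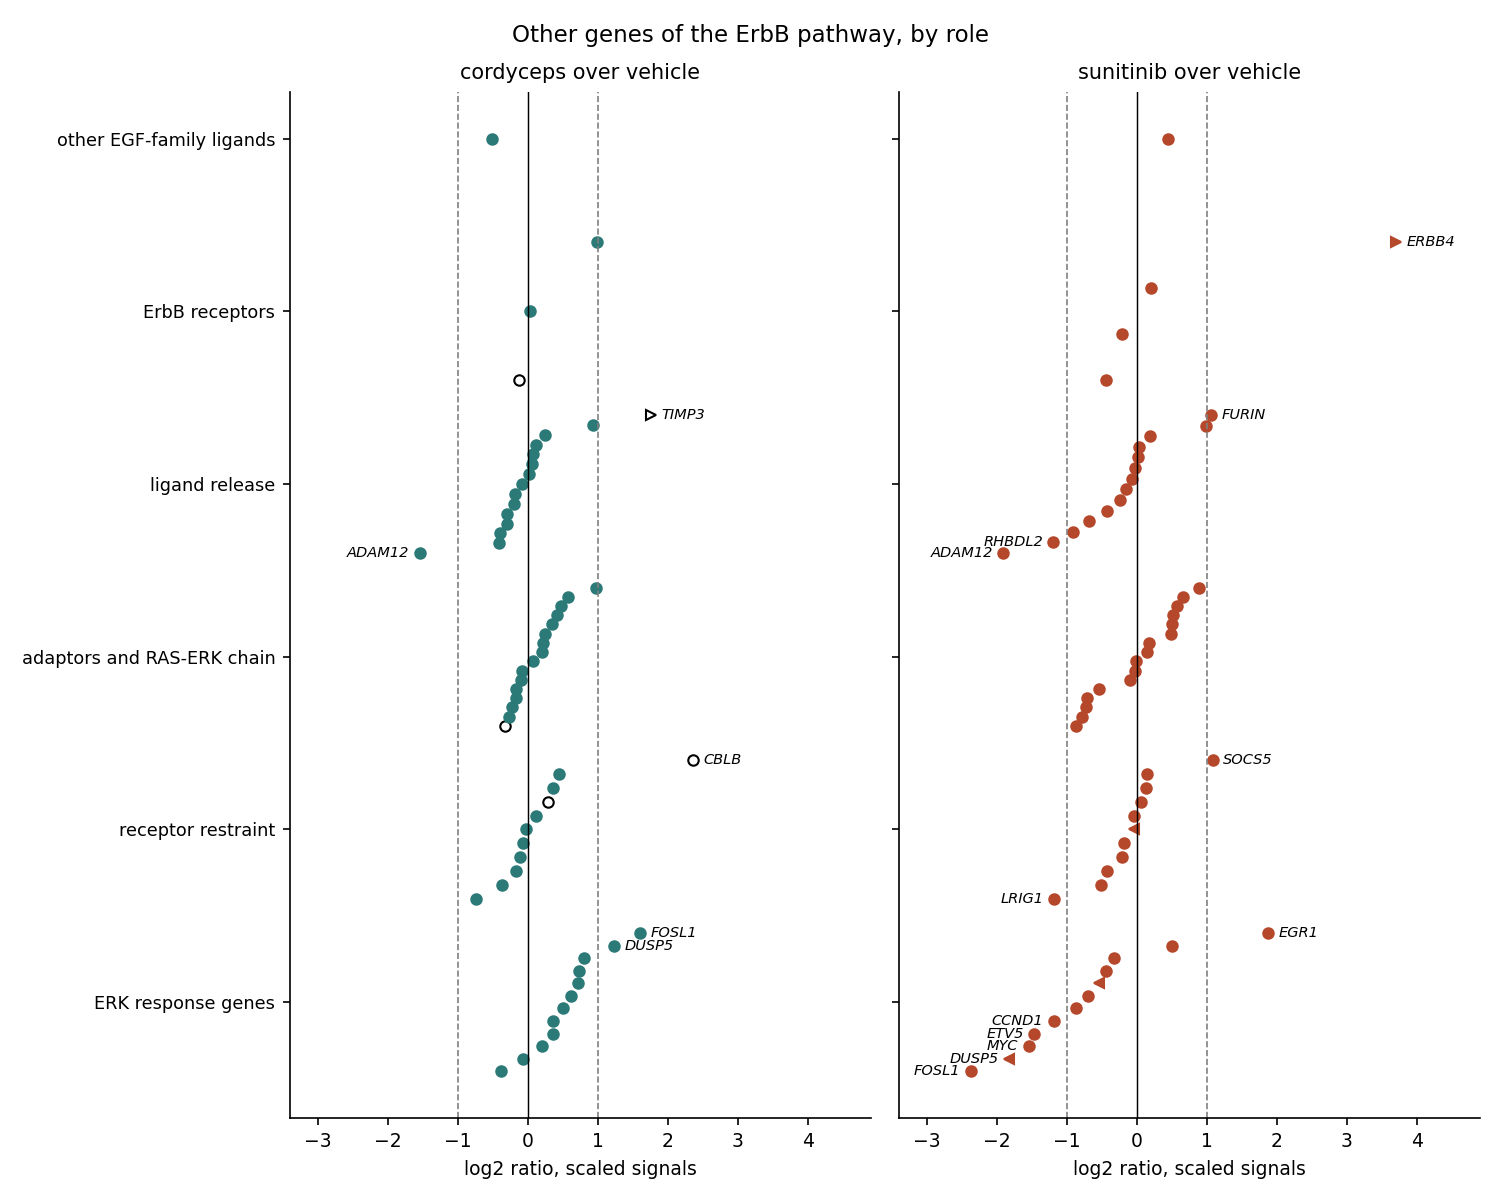
Log2 ratios over vehicle of the other pathway genes, 1 point a gene, grouped by role. Triangles are bounds, except that of DUSP5 on the sunitinib side, which is a plain ratio and no minimum. Open black points on the cordyceps side are genes with a probe in the bright area of that array. Dashed lines mark 2-fold, and genes past 2-fold are named. ERBB4 stands farthest right on the sunitinib side, and FOSL1 lies at 1.60 on the cordyceps side and at -2.37 on the sunitinib side.

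**Figure D5:**
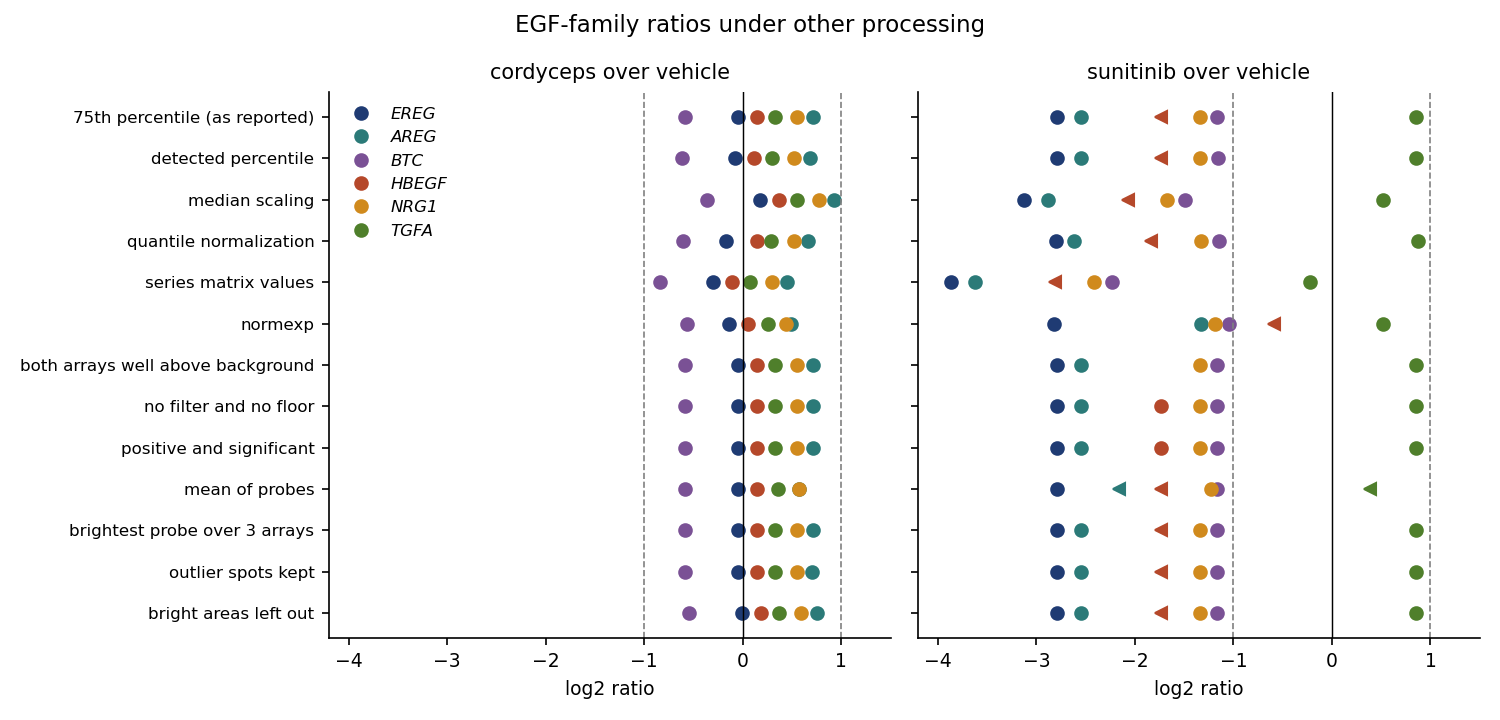
Log2 ratio of each EGF-family gene over vehicle as reported and under 12 other ways of processing the arrays. Triangles rest at least in part on a sunitinib signal not well above background, and dashed lines mark 2-fold. On the sunitinib side EREG, AREG, BTC and NRG1 stay left of -1 in every row, HBEGF crosses it with normexp and has no point where both arrays had to be well above background, and TGFA crosses 0 with the unscaled series matrix values.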

How the data were processed

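RNA of TK-10 cells was hybridised to 3 single-colour arrays, 1 each for vehicle, cordyceps and sunitinib, grouped by the agent in the labels. The authors deposited the Feature Extraction 11.5.1.1 output of each array, whose processed signal is an intensity on a linear scale after background subtraction, with probes annotated on hg19. The authors also deposited an intensity table of all probes, which equalled the mean processed intensity of a probe to within 0.01% for 99.9% of probes and was not scaled between arrays. The study's methods describe another, 2-colour array, and only their 2-fold limit was used.

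Control spots and outlier spots were left out. Replicate spots were averaged, and each signal was divided by the 75th percentile of its array and put on a log2 scale. Probes were named by RefSeq accession. A gene was read by its brightest probe, and the values of further probes are given for each EGF-family gene. A gene was compared where either array of the pair had its probe well above background, and counted past 2-fold. Where the dimmer side was not well above background, the ratio is a bound against the higher of the probe's own signal and the lowest signal well above background on that array. Where the probe's own signal was the higher, as for HBEGF and DUSP5 on the sunitinib array, this is the plain ratio and no minimum. The error of a ratio combines the software's errors of both spots, and the 95% limit is the normal limit on it. It covers technical error only, and the number of arrays limits the precision.

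The genes named are the 7 ligands, the list members past 2-fold, the highest and lowest member of each list, and the 3 genes nearest to each ligand in the 2 ratios, of which 1 for BTC is not reported here. The neighbours on chromosome 4, the further list members given for their role and the TATA motif were added after the values were seen. Members and lists were chosen with earlier results of these data known. For each count 14 alternatives were tried, and 12 for each ratio, in the scaling, the background correction (normexp, offset 50), the filter on dim probes, the choice of probe, outlier spots, the bright area and, for counts, the fold limit. Python 3.11.15, numpy 2.4.6, pandas 2.3.3, R 4.3.3 and limma 3.58.1 were used, and the steps were tested on simulated data.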

Additional observations from a re-analysis of the deposited data

How the results depend on the processing

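No paired analysis was possible because each condition has 1 array. The number of EGF-family genes past 2-fold was 0 and 0 on the cordyceps array under every alternative at that limit. Beside it, 1.30% to 7.29% of all genes were higher and 1.26% to 5.62% lower. On the sunitinib array 0 ligands were higher under each alternative, beside 1.09% to 27.7% of all genes. There 4 or 5 were lower, beside 5.65% to 53.7%. With normexp 4 were lower, beside 5.65%, and HBEGF was short of 2-fold. When both arrays had to be well above background, which leaves HBEGF out, 4 of 5 compared were lower, beside 5.79%. The fold limit moved the counts. At 1.5-fold, 1 of 6 genes (AREG) was higher on the cordyceps array, beside 8.70% of all genes, and 1 of 6 (TGFA) on the sunitinib array, beside 15.4%. At 4-fold, 2 of 6 (AREG and EREG) were lower on the sunitinib array, beside 1.39%. Of the single ratios, 115 values stayed within their technical error and 28 moved by more, and none past 2-fold changed sign. The other filters on dim probes left each ratio they gave as it was, and the mean of probes could not change a gene with 1 probe. The 115 are therefore no measure of stability.

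The share of all genes past 2-fold depended more on the processing. On the sunitinib array 5.65% were lower and 2.21% higher with normexp, and with no filter on dim probes 27.7% were higher. On the cordyceps array with no scaling 5.62% were lower and 1.85% higher, and with normexp 1.26% and 1.30%. Detection began at signals of 18.2 to 30.2, depending on the array. EGF has no ratio, and that of HBEGF on the sunitinib array rests on a signal not well above background. With 1 array a condition, a difference between cultures and a difference between treatments cannot be told apart.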
